A study of Homo sapiens with 6 samples.

Results

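LCN2 and a set of acute-phase and antimicrobial protein genes were examined in MDA-MB-231 cells, an established human triple-negative breast cancer line, after treatment with guadecitabine. The set was named as LCN2, SLPI, PI3, SAA1, SAA2, C3, CFB, S100A8, S100A9 and DMBT1, and its genes were chosen by their differences between guadecitabine and vehicle in these same counts. Of the 10 names, 8 matched a row among the 17100 transcripts counted, and S100A8 and S100A9 are not analysed here. Since the choice used this contrast, the differences of the 8 genes between the groups are given as descriptions, without p-values.

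Guadecitabine (SGI-110) is a dinucleotide prodrug of decitabine, a nucleoside that traps DNA methyltransferases and lowers DNA methylation as cells divide. RNA was sequenced from 3 vehicle libraries and from 3 libraries of cells kept for 96 h in 1 µM guadecitabine and then 24 h without it. The study describes the samples of a group as independent experiments, and all came from this 1 cell line, grown in DMEM per the labels. Total counts ran from 17602570 to 22277442 in the vehicle libraries and from 8792127 to 21410849 in the guadecitabine libraries, the lowest being guadecitabine replicate 2.

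Vehicle replicate 3 stood apart from the rest. It listed 20 transcripts at 0, against 1593 to 2517 in each of the other 5 libraries, and the 1525 genes with at most 1 count in every other library held a median of 7.99 counts per kb in it. At that density the library would hold 4.76 counts for SLPI, 4.43 for PI3, 4.72 for SAA1 and 6.57 for LCN2. For the longer counted transcripts it would hold 13.9 (SAA2), 21.0 (CFB), 41.0 (C3) and 46.4 (DMBT1). The counts of the 8 genes are therefore given by library.

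The genes encode secreted proteins of epithelial innate defence and of the acute-phase response. In infected or inflamed tissue, cytokines such as interleukin-1, tumour necrosis factor and interleukin-6 act on epithelial cells and hepatocytes, where the transcription factors NF-kB, C/EBP beta and STAT3 and the NF-kB cofactor IkB-zeta drive such genes. LCN2 (lipocalin 2) binds bacterial siderophores and thereby withholds iron, SLPI and PI3 (elafin) inhibit leukocyte proteases, and SAA1 and SAA2 are serum amyloid A apolipoproteins. C3 is the central component of complement, CFB (factor B) forms the alternative-pathway convertase with it, and DMBT1 is a scavenger-receptor glycoprotein of mucosal surfaces that binds bacteria.

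The start sites of the 8 genes were examined in the GRCh37 (hg19) sequence, from 250 bases upstream to 50 bases downstream of the start of each counted transcript. The windows were searched for the binding motifs of NF-kB, C/EBP, STAT and AP-1, and each match found is shown here so that the genes with and without one can be compared. Each run of 30 bases is written 5′ to 3′ on the strand of the gene with the match in capitals. The search covered both strands, so a match may read as the reverse complement of its motif.
LCN2 NF-kB match, chr9:130911547-130911576, plus strand: cagcactccgGGAATGTCCCtcactctccc
LCN2 C/EBP match, chr9:130911578-130911607, plus strand: gtccctctgtcTTGCCCAAtcctgaccagg
LCN2 AP-1 match, chr9:130911669-130911698, plus strand: ttggcaaagaaTGAATCAacccaccctaga
SAA1 NF-kB match, chr11:18287704-18287733, plus strand: atgacctgcaGGGACTTTCCccagggacca
SAA2 NF-kB match, chr11:18270256-18270285, minus strand: atgacctgcaGGGACTTTCCccagggacca
SAA1 C/EBP match, chr11:18287613-18287642, plus strand: gttccctcaggTTGCACAActgggataaat
PI3 NF-kB match, chr20:43803392-43803421, plus strand: taatcctgagGGAAAGCCCCcaggtccctc
CFB NF-kB match, chr6:31913741-31913770, plus strand: ccttgactggcagctcagcGGGGCCCTCCc
SLPI C/EBP match, chr20:43883280-43883309, minus strand: acgtttcctgcTTATGCAAtagtagctggg
DMBT1 C/EBP match, chr10:124320062-124320091, plus strand: tgcgtttgcagTTGGGCAAcagccagattg

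The SAA1 and SAA2 runs around the NF-kB match were identical over all 30 bases, and the 2 windows matched at 186 of 260 aligned bases (71.5%). The NF-kB match lay 175 bases upstream of the LCN2 start, 138 upstream of PI3, 94 upstream of SAA1 and 54 upstream of SAA2, and that of CFB lay 40 bases downstream of its start. Searched on both strands, the NF-kB consensus was found in 5 of the 8 windows and in 12.9% of all 17100 windows. The C/EBP letters TTGCNNAA were found in 4 of the 8 windows and in 8.17% of all, and the AP-1 letters TGANTCA in 1 of 8 and in 5.26%. LCN2 and SAA1 held both an NF-kB and a C/EBP match, as did 0.766% of all windows. The STAT letters TTCNNNGAA were found in none of the 8 windows and in 6.73% of all, and the C3 window held none of the 4 motifs. A match describes letters in the window and is not evidence of binding.

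The windows of all 8 genes were poor in CpG sites, the dinucleotides that DNA methyltransferases modify. They held 1 to 6 CpG sites each, against a median of 22 over all windows. The ratio of observed to expected CpG ran from 0.0398 for C3 through 0.255 for LCN2 to 0.301 for DMBT1, below the median of 0.768 and between the percentiles 1.25 and 16.5 of all windows. DMBT1, the gene that fell, had the highest ratio of the 8, while the 7 genes that rose lay between 0.0398 and 0.255. Over all genes tested, 22.1% of the 2245 with a ratio under 0.5 were called higher and 20.4% lower, beside 18.8% and 17.96% of the 11077 with a higher ratio. DNA methylation itself was not measured in these libraries.

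**Figure D1:**
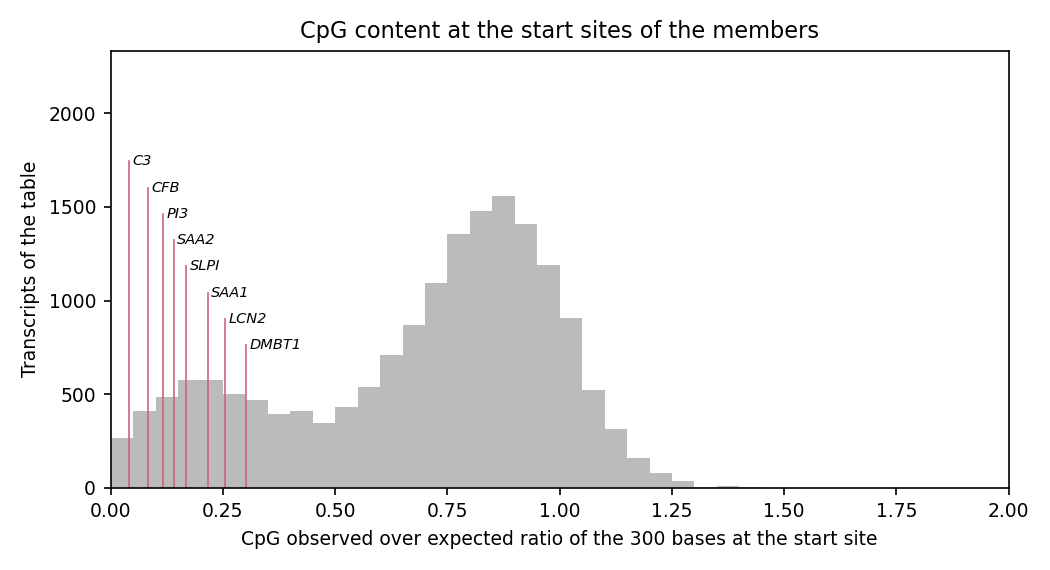
Distribution of the observed to expected CpG ratio over all start-site windows (x axis, ratio without unit; y axis, number of transcripts), with a vertical line at each of the 8 genes, whose height only separates the names. The 8 genes lie between 0.0398 and 0.301, to the left of the median of 0.768.

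LCN2 was low in vehicle cells and abundant after guadecitabine. Its transcript (NM_005564) lies on chromosome 9 from 130911732 to 130915734 on the plus strand. Raw counts were 23, 26 and 38 in the vehicle libraries and 3321, 1602 and 2854 in the guadecitabine libraries. Scaled to the mean library size, LCN2 had 26.2 ± 3.87 normalized counts with vehicle and 2944 ± 291 with guadecitabine (SD, n = 3 each), a log2 fold change of 6.80 (SE 0.164) or 111-fold. The groups were far apart, and the guadecitabine library of lowest depth held the highest normalized count (3260). Among all transcripts ranked by level per length, LCN2 moved from percentiles 39.0 to 41.0 in the vehicle libraries to percentiles 97.2 to 97.7 in the guadecitabine libraries. In RNA from whole cultures, more cells with LCN2 RNA and more LCN2 RNA per cell cannot be told apart. Its log2 fold change ranked 30th from the highest among the 13322 genes tested.

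MMP9, the gelatinase with which lipocalin 2 forms a disulfide-linked complex, rose with it. Its counts were 5, 9 and 17 with vehicle and 580, 405 and 552 with guadecitabine, and it increased by 6.01 on the log2 scale (SE 0.331, edgeR quasi-likelihood adjusted p = 2.50e-06). SLC22A17, which encodes a lipocalin 2 receptor, was not tested: it had 0, 0 and 93 counts with vehicle and 2, 1 and 0 with guadecitabine. Its vehicle counts thus came from replicate 3.

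The secreted protease inhibitors SLPI and PI3 both rose from very few counts. They belong to the WAP (whey acidic protein) domain family and lie on the same arm of chromosome 20, PI3 (NM_002638) from 43803540 to 43805185 on the plus strand and SLPI (NM_003064) from 43880880 to 43883205 on the minus strand. PI3 had 4, 5 and 8 counts with vehicle and 169, 54 and 108 with guadecitabine. That is 5.09 ± 1.20 against 119 ± 15.8 normalized counts, a log2 fold change of 4.50 (SE 0.354). All 3 guadecitabine libraries lay above all vehicle libraries for PI3, at 109.0 to 136.8 against 3.8 to 6.2 normalized counts.

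SLPI had 0, 1 and 9 counts with vehicle and 38, 17 and 36 with guadecitabine. The 9 counts of vehicle replicate 3 stand beside the 4.76 counts that its general density would give, and the log2 fold change of 3.51 (SE 0.888) became 5.74 without that library. Against the other 2 vehicle libraries, which were at or below 3 counts, SLPI was at least 11.3-fold higher, taking 3 counts per library as the floor. SLPI also remained the scarcer of the pair after guadecitabine, at 56.9 ± 4.79 against 214 ± 28.5 normalized counts per kb for PI3.

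SAA1 was the most abundant of the 8 genes in both groups. It lies on chromosome 11 from 18287808 to 18291523 on the plus strand (NM_001178006), and SAA2 (NM_001127380) lies beside it on the minus strand from 18259780 to 18270221. SAA1 had 1177, 1046 and 943 counts with vehicle and 10662, 4511 and 8379 with guadecitabine, or 985 ± 222 against 8757 ± 377 normalized counts (log2 fold change 3.15, SE 0.172). Vehicle replicate 3 was the lowest of all 6 libraries for SAA1, at 728 normalized counts, although it was the highest vehicle library for the other genes that rose except CFB. SAA2 had 35, 40 and 69 counts with vehicle and 814, 262 and 526 with guadecitabine (43.0 ± 10.0 against 574 ± 73.3 normalized counts, log2 fold change 3.73, SE 0.190).

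Both serum amyloid A genes therefore rose, by 8.90-fold and 13.3-fold. The ratio of SAA1 to SAA2 per kb was 98.8, 76.9 and 40.2 in the vehicle libraries and 38.5, 50.6 and 46.8 in the guadecitabine libraries, so that the groups overlapped through vehicle replicate 3. The 2 transcripts are near copies: of the 50-base stretches of the reference transcripts, 66.3% for SAA1 and 70% for SAA2 were unique in the genome, and 114 stretches of each occur in exons of the other. How reads that fit both were counted is not given in the sources used here, and the split between the 2 genes is uncertain. The SAA2 value per kb also rests on a counted length of 1737 bp, where the reference transcript has 576 exon bases, and SAA2 overlaps the readthrough gene SAA2-SAA4 on its strand.

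Of the complement genes, C3 rose more than CFB. C3 (NM_000064, chromosome 19 from 6677846 to 6720693, minus strand) had 119, 101 and 224 counts with vehicle and 1695, 1006 and 1723 with guadecitabine. Its normalized count went from 131 ± 36.5 to 1720 ± 338, a log2 fold change of 3.70 (SE 0.221) or 13.0-fold. CFB (NM_001710, chromosome 6 from 31913721 to 31919861, plus strand) had 674, 606 and 773 counts with vehicle and 1684, 853 and 1483 with guadecitabine. Its normalized count went from 626 ± 25.4 to 1532 ± 189, a log2 fold change of 1.29 (SE 0.118) or 2.44-fold. The groups did not overlap for either gene.

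Because C3 rose further, the 2 transcripts came closer in level. Per kb, CFB exceeded C3 by 11.1, 11.7 and 6.74 times in the vehicle libraries and by 1.94, 1.66 and 1.68 times in the guadecitabine libraries. The span of each gene overlaps another annotated gene on its strand, a lncRNA for C3 and a readthrough transcript for CFB. Whether exons are shared was not examined, and reads from these partners may be among those of C3 and CFB.

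DMBT1 went the other way. The gene (NM_004406) lies on chromosome 10 from 124320181 to 124403252 on the plus strand, and had 418, 337 and 560 counts with vehicle and 30, 18 and 37 with guadecitabine. Its normalized count was 395 ± 38.4 with vehicle and 32.8 ± 7.34 with guadecitabine, so that it fell by 3.63 on the log2 scale (SE 0.199), 12.4-fold lower. All 3 guadecitabine libraries (24.3 to 37.4 normalized counts) lay below all vehicle libraries (356 to 433). Its log2 fold change ranked 16th from the lowest among the 13322 genes tested. DMBT1 encodes repeated scavenger-receptor domains, and 59.9% of the 50-base stretches of its reference transcript were unique in the genome, against 100% for LCN2, SLPI, PI3, C3 and CFB.

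**Figure D2:**
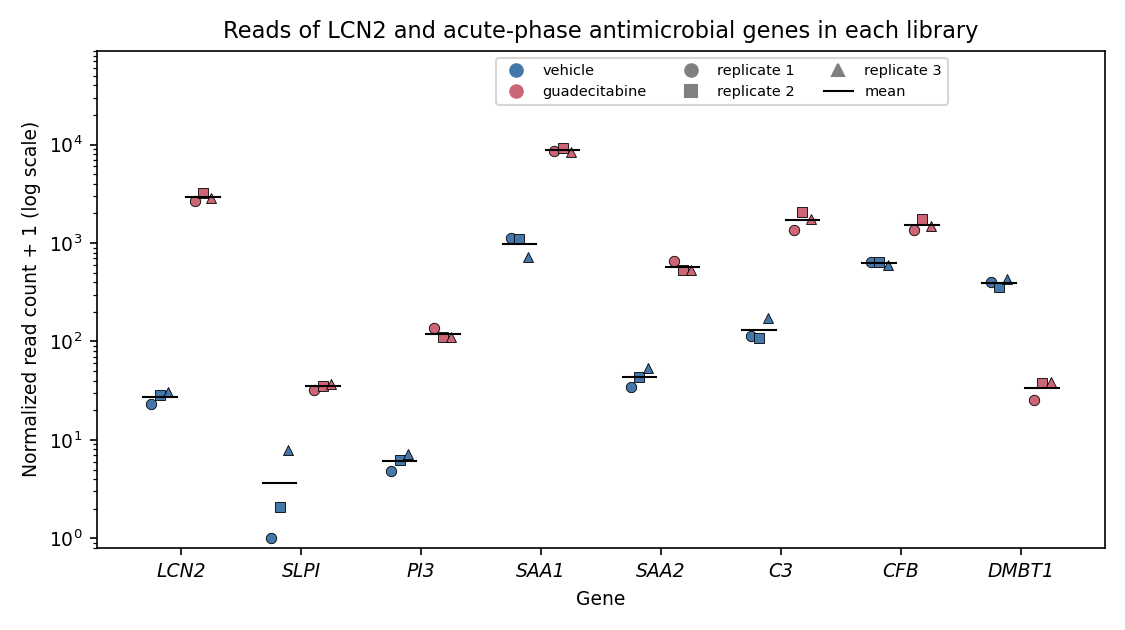
Normalized count + 1 of each of the 8 genes in every library (y axis, log scale; x axis, gene), with 1 point per library, colour for vehicle or guadecitabine, point shape for the replicate number and a line at the group mean. The 3 guadecitabine points lie above the 3 vehicle points for 7 genes and below them for DMBT1, and vehicle replicate 3 is the highest vehicle point for SLPI.

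At an adjusted p of 0.05 by the edgeR quasi-likelihood test, 7 of the 8 genes were called higher and 1 lower with guadecitabine, where 19.3% and 18.4% of the 13322 genes tested were called in these directions. The 3 guadecitabine libraries lay wholly above the vehicle libraries for 7 of the 8 genes and wholly below for 1, where 26.6% and 25% of all genes tested did so. Without guadecitabine replicate 3, 6 were called higher, SLPI no longer among them. Nothing is read from these counts, since the genes were chosen for their difference in this contrast. The genes differed widely in size of change. The 7 that rose ran from 1.29 for CFB to 6.80 for LCN2 on the log2 scale, and CFB, the smallest, ranked 818th.

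**Figure D3:**
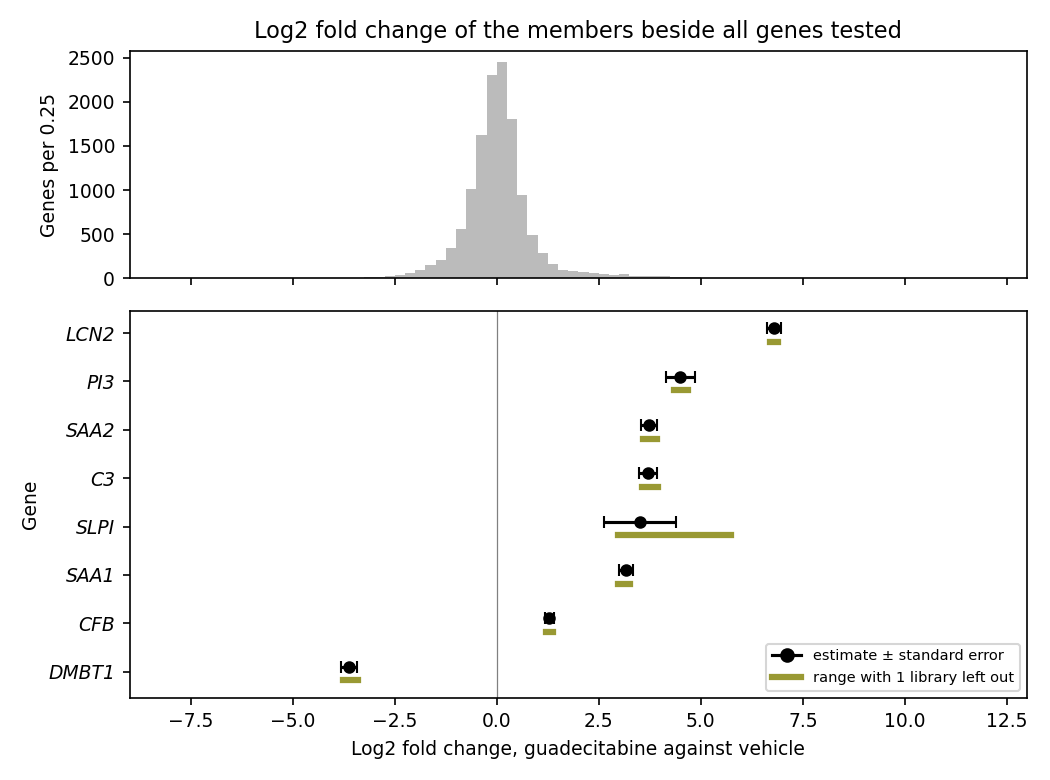
Log2 fold change of guadecitabine against vehicle for each of the 8 genes (lower panel, x axis), with black bars of 1 SE and coloured bars for the range of values when single libraries are left out, under the distribution over all 13322 genes tested (upper panel, y axis in genes per 0.25 on the log2 scale). The points run from -3.63 for DMBT1 to 6.80 for LCN2, and the value for SLPI moves from 3.51 to 5.74 without vehicle replicate 3.

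The order of the 8 genes by level changed between the groups. In vehicle cells, in normalized counts per kb, SAA1 stood first (1666 ± 376), followed by CFB (238 ± 9.66), DMBT1 (68.2 ± 6.62) and LCN2 (31.9 ± 4.71). LCN2 overlapped C3 (25.5 ± 7.12) and SAA2 (24.7 ± 5.76), and PI3 (9.19 ± 2.16) overlapped SLPI (4.48 ± 6.29). After guadecitabine SAA1 was again first (14818 ± 637), LCN2 had moved to second place (3581 ± 354), and CFB followed (583 ± 71.8). C3 (335 ± 65.9) and SAA2 (331 ± 42.2) overlapped, and DMBT1 was last (5.65 ± 1.27). LCN2 went from 1.40, 1.79 and 2.90% of the SAA1 level per kb in the vehicle libraries to 22.4, 25.5 and 24.5% in the guadecitabine libraries.

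The 8 genes together took 125, 123 and 118 CPM (counts scaled to the library total) in the vehicle libraries and 860, 947 and 854 in the guadecitabine libraries. SAA1 made up most of their summed level per kb in every library, at 74.4 to 83.0% with vehicle and 73.5 to 75.5% with guadecitabine. The increase of the sum was thus mainly that of SAA1, while the largest relative increase was that of LCN2.

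The profile of LCN2 over the 6 libraries was compared with that of every gene by the root mean square difference of log2 values. These values had 2 counts added in every library, and each gene was centred on its own mean. Of 10445 genes with enough reads, the closest were CXCL1 (0.112), SOST (0.239), PAGE2B (0.265), FMR1NB (0.265) and IL23A (0.275). CXCL1 encodes a neutrophil-attracting chemokine, SOST the Wnt inhibitor sclerostin and IL23A a subunit of interleukin-23. PAGE2B and FMR1NB are genes of the cancer/testis class. They had at most 1 count in each vehicle library, so that their place depends on the added counts. Their fitted log2 fold changes were 8.44 and 9.36, beside 6.80 for LCN2. The other genes of the set were placed in the same order, PI3 and SLPI although they had fewer reads than that minimum. PI3 ranked 67th (1.30), C3 82nd, SAA2 84th, SAA1 113th, SLPI 114th and CFB 337th (2.72), with DMBT1 among the least alike at 10440th (5.12). The likeness is a description over 6 libraries that fall into 2 groups.

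Cytokines, receptors, transcription factors and other genes that induce or regulate acute-phase genes were examined next, inhibitors such as SOCS3 included. The list held 38 genes, of which 33 could be tested. Of these, 20 were called higher and 3 lower, with a median log2 fold change of 0.53 beside 0.0179 over all genes tested. Over all genes tested, 19.3% were called higher and 18.4% lower, the shares to set beside each list that follows too. This list and those that follow were chosen with earlier results of these data known, so their counts are descriptions. The largest increases in the list were those of cytokines. IL1B rose from 30.6 ± 12.4 to 8549 ± 1140 normalized counts (log2 fold change 8.08, SE 0.252, edgeR adjusted p = 8.60e-08), and IL1A rose from 14.1 ± 4.02 to 3865 ± 520 (8.07, SE 0.211, edgeR adjusted p = 3.32e-08). TNF had 3, 1 and 18 counts with vehicle and 1098, 532 and 939 with guadecitabine (log2 fold change 7.17, edgeR adjusted p = 1.96e-06), a log2 fold change that was 8.83 without vehicle replicate 3. IL6, which acts on hepatocytes through STAT3, was well expressed in vehicle cells and rose by 4.55 on the log2 scale (edgeR adjusted p = 2.53e-08). Without guadecitabine replicate 3, 13 genes of the list were called higher.

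Among the nuclear factors, NFKBIZ, which encodes IkB-zeta, rose by 1.86 on the log2 scale (edgeR adjusted p = 3.09e-06) and CEBPB, which encodes C/EBP beta, by 1.51 (edgeR adjusted p = 6.62e-05). ELF3, an epithelial ETS factor, rose by 0.59 (edgeR adjusted p = 0.00623) and STAT3 by 0.39 (edgeR adjusted p = 0.0120), while CEBPD had a log2 fold change of 0.35 that missed the threshold (edgeR adjusted p = 0.194). The 3 that fell were SOCS3, an inhibitor of STAT3 signalling (-0.92, edgeR adjusted p = 0.00181), IL17RC, a subunit of the interleukin-17 receptor (-0.83, edgeR adjusted p = 0.00443), and TNFRSF1A, a receptor of tumour necrosis factor (-0.34, edgeR adjusted p = 0.0265). Other inhibitors of the list went the other way. ZC3H12A (3.05) and NFKBIA (1.20), chosen here after their values were seen, were called higher. The calls of STAT3 and TNFRSF1A were lost when single libraries were left out, that of STAT3 without vehicle replicate 2 or guadecitabine replicate 3, and that of TNFRSF1A without vehicle replicate 1, vehicle replicate 2, guadecitabine replicate 1 or guadecitabine replicate 3, and with a replicate block.

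Receptors and binding partners of the encoded proteins were taken as 21 genes, of which 13 were tested, 7 were called higher and 0 lower by edgeR. Over all genes tested, 19.3% and 18.4% were called in these directions. The number called higher was 5 with a replicate block, and also without vehicle replicate 1, vehicle replicate 2 or guadecitabine replicate 3. At an unadjusted p under 0.05, 8 were higher and 1 lower, and DESeq2 called 1 of them lower. Beside MMP9, TLR2, at which serum amyloid A acts, rose by 1.29 on the log2 scale (edgeR adjusted p = 3.15e-04) and AGER, a receptor of S100 proteins and serum amyloid A, by 0.92 (edgeR adjusted p = 0.0365), a call that was lost with a replicate block and without any single library other than vehicle replicate 3. TLR4 had a log2 fold change of 0.29 (edgeR adjusted p = 0.245). Over the 13 genes the median was 0.49 on the log2 scale, beside 0.0179 over all genes tested.

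Most other complement genes that could be tested did not rise with C3 and CFB. Of 37, 17 were tested, and 2 of these were called higher and 8 lower, with a median log2 fold change of -0.74. C4BPB, a subunit of the C4b-binding protein (1.04, edgeR adjusted p = 0.00253), and CD55, which dissociates the convertases (0.59, edgeR adjusted p = 0.00179), rose. C1R, a protease of the classical pathway, fell by 1.92 on the log2 scale (edgeR adjusted p = 2.50e-04), and CFD, the protease that cleaves factor B, by 1.35 (edgeR adjusted p = 0.0286). C2, the classical-pathway homologue encoded beside CFB and chosen here after its value was seen, was called lower (-0.74). The number of complement genes called lower ran from 5 to 9 when single libraries were left out, 5 without vehicle replicate 2 or guadecitabine replicate 3. The call of CFD was lost without vehicle replicate 1, vehicle replicate 2 or guadecitabine replicate 3.

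Other acute-phase genes were few in these cells. Of 24, 18 were in the table and 6 could be tested, with 3 called higher and 2 lower. VNN1, a pantetheinase, had 6, 11 and 37 counts with vehicle and 605, 188 and 343 with guadecitabine (log2 fold change 4.66, edgeR adjusted p = 3.21e-05), with a value of 5.56 on the log2 scale without vehicle replicate 3. PTX3, a pentraxin made outside the liver, rose by 2.41 (edgeR adjusted p = 4.52e-06) and SERPINA1, which encodes alpha-1-antitrypsin, by 1.04 (edgeR adjusted p = 3.50e-04). ITIH4, an inter-alpha-trypsin inhibitor heavy chain, fell by 2.07 on the log2 scale (edgeR adjusted p = 3.79e-04). The number called lower was 1 without vehicle replicate 2 or any single guadecitabine library, and with a replicate block.

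Among 38 other antimicrobial protein genes, 22 were in the table and 11 were tested. ADM, which encodes adrenomedullin, was called higher (1.88, edgeR adjusted p = 3.49e-06) and ANG, which encodes angiogenin, lower (-1.31, edgeR adjusted p = 0.00436). The median of the 11 was 0.11, and without vehicle replicate 3 the number called higher was 4. The number called lower was 2 without guadecitabine replicate 2.

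Genes of iron handling were examined because lipocalin 2 carries siderophore-bound iron. All 15 were tested, and 5 were called higher and 5 lower, with a median log2 fold change of 0.04. Both ferritin chains rose, FTL by 1.09 on the log2 scale (edgeR adjusted p = 2.07e-05) and FTH1 by 0.50 (edgeR adjusted p = 0.00611), as did SLC39A14, an importer of zinc and non-transferrin iron (0.76, edgeR adjusted p = 0.00473). BDH2, an enzyme linked to the synthesis of a mammalian siderophore, fell by 2.42 on the log2 scale (edgeR adjusted p = 6.93e-05), SLC40A1, the iron exporter ferroportin, by 1.85 (edgeR adjusted p = 4.16e-05), and HFE by 1.30 (edgeR adjusted p = 2.75e-05).

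**Figure D4:**
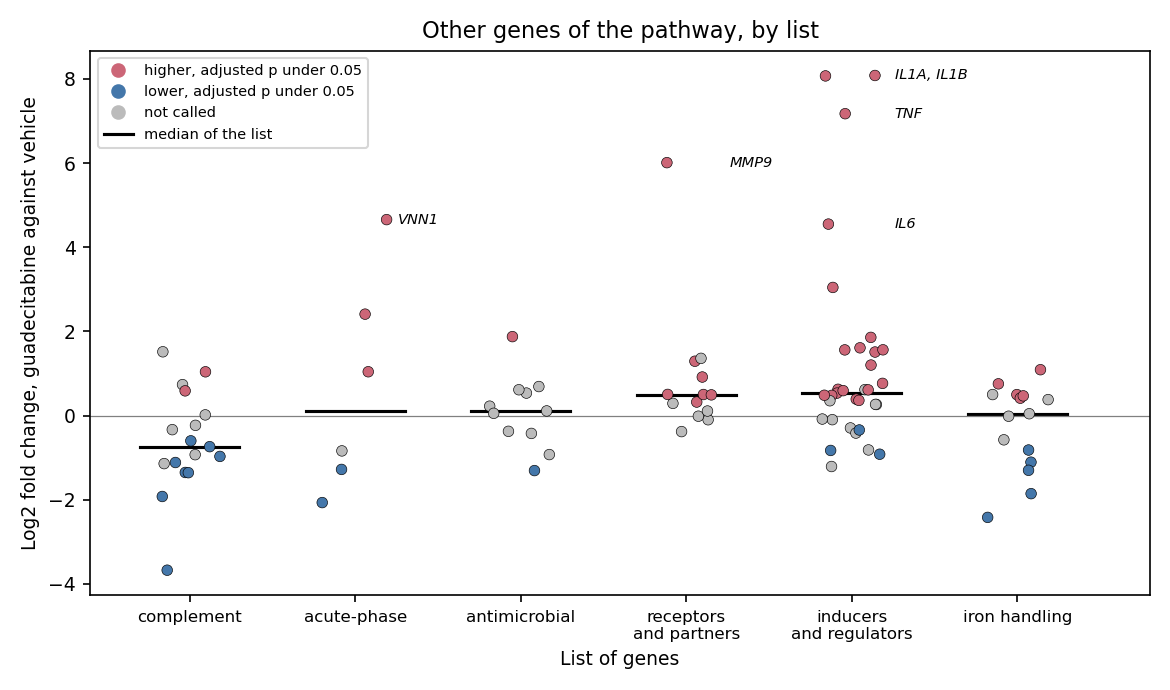
Log2 fold change of guadecitabine against vehicle (y axis) of the tested genes of each pathway list (x axis), 1 point per gene, coloured by whether it was called higher, lower or not called at an adjusted p of 0.05, with a line at each list's median. The list of inducers and regulators has its median at 0.53 and the complement list at -0.74.

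For each of the 8 genes, the tested genes with the next lower and the next higher start coordinate were read in the same fit, which gave 12 distinct neighbours. C2 is not among them by this rule, since its longer transcript starts below ZBTB12 although it ends nearer to CFB. Of the 12 neighbours, 5 were called higher and 3 lower, where 19.3% and 18.4% of all genes tested were called in these directions. SDC4, the syndecan-4 gene next to SLPI at a gap of 70723 bp, rose by 2.77 on the log2 scale (SE 0.131, edgeR adjusted p = 1.07e-06), and HPS5, at 8693 bp from SAA1, by 1.16 (edgeR adjusted p = 0.00146). The neighbours of LCN2 moved little beside its own log2 fold change of 6.80: C9orf16 rose by 0.85 (edgeR adjusted p = 0.0227) and PTGES2 by 0.66 (edgeR adjusted p = 0.0246). CD70, beside C3, had 0, 0 and 7 counts with vehicle and 35, 20 and 43 with guadecitabine, a log2 fold change of 4.14 (edgeR adjusted p = 0.00980), which was 8.12 without vehicle replicate 3.

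The tested neighbours of DMBT1, the gene that fell, were also called lower. HTRA1, a secreted serine protease at a gap of 45756 bp, fell by 2.97 on the log2 scale (edgeR adjusted p = 5.41e-07). FAM24B, on the other side at 205357 bp, fell by 0.79 (edgeR adjusted p = 0.0172). Beside CFB, which rose, ZBTB12 fell by 2.01 (edgeR adjusted p = 3.34e-05). The calls of PTGES2 and C9orf16 were lost without vehicle replicate 1, guadecitabine replicate 2 or guadecitabine replicate 3, that of FAM24B without vehicle replicate 1 or guadecitabine replicate 3, and that of CD70 without guadecitabine replicate 3. The groups overlapped for C9orf16. The 4 neighbours that were not called were KCNS1, SAAL1, GPR108 and NELFE. The number called higher was 2 without guadecitabine replicate 3, and 3 without vehicle replicate 1 or guadecitabine replicate 2.

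Since several of the 8 genes are abundant in neutrophils, liver and squamous epithelium, markers of those cells were read in the same libraries. Of 12 neutrophil markers, 9 were in the table and none of the 3 tested was called by edgeR or DESeq2 or reached an unadjusted p under 0.05. MPO, CSF3R, CXCR2 and CAMP had at most 3 counts in each library other than vehicle replicate 3, and the summed level of the list was 15.0 to 97.1 counts per kb with vehicle and 21.6 to 32.0 with guadecitabine. Of 10 hepatocyte markers, 7 were in the table. ALB, AHSG, CYP3A4, SERPINC1, FGB and HNF4A had at most 3 counts outside vehicle replicate 3, with sums of 5.85 to 88.6 and 19.4 to 23.7. Of 16 squamous keratinocyte markers, 10 were in the table, and TGM1 was called higher. IVL, KRT1, KRT4, KRT6A and DSG3 had at most 3 counts outside vehicle replicate 3, and the sums were 398 to 608 and 304 to 532.

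Other cell types gave the following values. Of 11 monocyte and macrophage markers, 10 were in the table. CD68 and FCER1G were called higher and CSF1R lower, the summed level was 1754 to 2023 counts per kb with vehicle and 4311 to 4413 with guadecitabine, and PTPRC, CD163, AIF1 and MARCO had at most 3 counts outside vehicle replicate 3. The 6 fibroblast markers summed to 199 to 288 and 409 to 550, with COL1A1 called higher and COL1A2 and PDGFRB lower. The lymphocyte list, with 4 of 8 genes in the table and 0 tested, summed to 3.36 to 25.2 and 7.45 to 8.55. The part of the macrophage and fibroblast sums in the changes of the 8 genes was not tested. The 9 markers of a breast epithelial line summed to 69911 to 71796 with vehicle and 67891 to 81463 with guadecitabine. Of these, CD44 and VIM were called higher and KRT8, KRT7, EPCAM and ERBB2 lower. ESR1 and PGR, which the triple-negative class lacks, had at most 3 counts outside vehicle replicate 3.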

How the data were processed

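RNA-seq libraries were made with a TruSeq kit and sequenced by the authors, who aligned reads to hg19 with STAR 2.3.1z and used iRNA-seq to count the exonic tags of each RefSeq transcript. The deposited raw counts, one column per library, were used. The deposited table also holds the authors' rlog values (log2), a mean signal (baseMean) and their own comparison (log2 fold change and its error, a test score and p-values), none of which was used. Strandedness of counting and treatment of multi-mapping reads are not given in the sources used here.

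Counts were fitted in edgeR 4.0.16 (R 4.3.3) by the quasi-likelihood test with TMM factors, filterByExpr at a minimum count of 10 (13322 of 17100 genes tested) and Benjamini-Hochberg adjustment over all tested genes, with calls at 0.05. Normalized counts are scaled to the mean library total, and counts per kb divide them by the deposited counted length. Error is the SD over libraries, and the SE of a fold change comes from the test statistic. The fit was tested on simulated data. DESeq2 1.42.0, other scalings and filters, a replicate block and leaving out each library were the alternatives. Start-site sequence came from the GRCh37 genome, and stretches of 50 bases from GENCODE release 44 transcripts were searched in it. Protein sequences were not used here.

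The genes and lists were chosen with earlier results of these data known. Of each list, the text names at most 3 genes that rose most and 3 that fell most among those called, with a mean count of at least 50 and groups that did not overlap. IL1A, IL1B, IL6, CEBPB, CEBPD, NFKBIZ, STAT3, ELF3, SLC22A17, MMP9 and TLR4 are named whatever their value, as are called neighbours and the 5 genes of mean count at least 100 most like LCN2. Replicates are separate experiments per the study, and p-values measure the spread between 3 libraries a group. Same-numbered vehicle and guadecitabine libraries did not deviate together, with correlations of 0.0105, -0.0310 and -0.0892, and the main fit has no block.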

Additional observations from a re-analysis of the deposited data

How the results depend on the processing

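The 8 genes kept their direction under each of the 12 alternatives that gave them a value, and at least 10 counts in every library left out SLPI and PI3. SLPI moved by more than its spread, with a log2 fold change of 2.97 to 5.74 over the 6 libraries left out. Leaving out single libraries gave 1706 to 3002 genes called higher and 1629 to 2575 lower. Complement genes called lower were 5 to 9 and acute-phase genes called lower 1 to 2. Antimicrobial genes called higher were 1 to 4 and lower 1 to 2, and receptors called lower were 0 to 1. Inducers and regulators called higher were 13 to 19, and neighbours called higher 2 to 6. With DESeq2, 1 receptor was called lower. Same-numbered vehicle and guadecitabine libraries did not deviate together, which with 3 libraries a group cannot exclude pairing by experiment. A replicate block gave 2424 genes higher and 2230 lower, with 1 acute-phase gene lower. Of 488 alternatives for 41 other named genes, 461 left the call as it was, 26 lost it and 1 gained it (CEBPD, without guadecitabine replicate 1), and none reversed. The median log2 fold change of all genes was 0.0179, 0.0509 with library totals only and -0.107 over the 17100 genes without a filter. Counts in vehicle replicate 3 limit what can be said of genes with few reads, such as SLPI and CD70. The cause was not tested.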
